A study of Mus musculus with 6 samples.

Results

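The cytosolic heat shock chaperones described here are 10 genes of the HSP70, HSP90 and HSP40 families, chosen by name, and every probe set that names 1 of these genes alone was used. Of 45037 probe sets on the array, 29 name a member, and they cover 9 of the 10 genes. Hsp90ab1, the constitutive cytosolic HSP90, is named alone by no probe set of the annotation used and was not analysed here. Hspa9 is kept as listed, although the protein is known to work in mitochondria and not in the cytosol.

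The arrays measured RNA of long-term haematopoietic stem cells (LT-HSC) sorted from mouse bone marrow, with 3 arrays labelled as Irf8 knockout (Irf8-/-) and 3 labelled as wildtype (Irf8+/+). Both groups are labelled 3 weeks, untreated and biological replicates, and both hold cells gated as lineage-, Sca-1+, c-kit+, CD48- and CD150+. Irf8 encodes a transcription factor needed for monocytes and dendritic cells. The targeting of the allele, the strain and whether 1 array holds several animals do not appear in the labels.

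HSP70 proteins hold unfolded stretches of other proteins in a cycle of ATP binding and hydrolysis. HSP40 proteins deliver the clients and start hydrolysis, HSP110 proteins exchange the nucleotide, and HSP90 finishes the folding of kinases and receptors that HSP70 passes on. Most cells carry constitutive members at high level, and heat or misfolded protein induces others through the heat shock factor HSF1. In blood stem cells, protein quality control of this kind is known to matter because these cells make protein slowly and tolerate misfolded protein poorly.

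The array facts that touch the chaperones concern purity and spread. Array medians ran from 4.85 to 4.96 (log2), correlations between arrays over all probe sets from 0.82 to 0.90, and 0 array pairs were identical. Kit, the stem cell factor receptor that the gate required, was between 8.09 and 10.46 in all 6 arrays. Slamf1, which encodes the gated CD150, was 9.02, 8.49 and 4.71 in knockout replicates 1, 2 and 3, against 5.97, 9.11 and 6.63 in wildtype replicates 1, 2 and 3. Cd48, which the gate excluded, was 7.60, 9.42 and 3.55 in the knockout arrays, against 4.54, 4.31 and 3.13 in the wildtype arrays. Ly6a, the gene of Sca-1, is named alone by no probe set used. The 15 measured of 18 neutrophil and granulocyte precursor markers had a summed signal of 14.43, 14.41 and 16.08 (log2) in knockout replicates 1, 2 and 3, against 12.83 to 13.50 in wildtype arrays. Knockout replicate 3 thus had the highest neutrophil sum and the lowest Slamf1. Slamf1 was also low in wildtype replicates 1 and 3, at 5.97 and 6.63. By Cd48 it was knockout replicates 1 and 2 that stood apart. The 4 measured of 7 markers that the sort excludes, Cd48 among them, summed to 10.92, 10.64 and 9.73 in knockout replicates 1, 2 and 3. In wildtype arrays this sum was 10.03 to 10.18. The differences that knockout replicate 3 moves most are also given without it. Irf8 itself did not separate the labels, with differences of 0.41 and 0.23 (SE 0.64 and 0.51, adjusted p = 0.929 and 0.955 in limma) in its 2 probe sets, and where these lie relative to the deletion is not given, so directions refer to arrays as labelled.

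No chaperone passed the test, and the probe sets of most members leaned to lower values in knockout. All values are log2 expression values, and each difference is knockout minus wildtype from limma, with adjusted p over all 18193 genes or all 45037 probe sets and a threshold of 0.05. By gene, where the brightest probe set stood for the gene, 0 of 9 members passed, against a background of 0% of all genes. Of the 9, 6 had a difference below 0, against 43.4% of all genes. Brighter genes were more often below 0, with 4814 of the 9096 genes above the median gene level. Of the 7 members above that level, 5 were below 0. Before adjustment Hspa8 had p under 0.05 upwards (2.40% of all genes) and Hsp90aa1 and Hspa9 had it downwards (2.44%). These 3 were also the members whose groups did not overlap, 1 higher (6.67% of all genes) and 2 lower (4.25% of all genes). Among genes above the median level the shares were 4.89% and 6.3%. The median difference was -0.12 over the 9 members, 0.07 over all genes and -0.05 over genes above the median level. The members' median standard error was 0.31. Without knockout replicate 3 the members' median was -0.20. Knockout and wildtype arrays are bulk samples, in which fewer cells of a type and less RNA per cell cannot be told apart.

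Bright probe sets are those with a mean over all arrays above the median probe set at 5.04. Among them a lean to lower values was seen too. They include the sets that stood for most members by gene, so this is no separate support. Of 23 bright chaperone probe sets 17 had a difference below 0, against 50.5% of all bright probe sets. The groups did not overlap in 6 of the 23, with 5 lower in knockout (background 5.80% of bright probe sets) and 1 higher (background 5.27%). The 5 lower ones belong to 5 genes, Hspa8, Hspa9, Hsph1, Dnaja1 and Hsp90aa1, and the higher one to Hspa8 again. The number below 0 was 15 of 23 with knockout replicate 3 left out and 13 of 23 with wildtype replicate 2 left out. Over all 29 probe sets the same 1 was higher (6.66% of all probe sets) and the same 5 lower (4.23%) without overlap, and 0 passed after adjustment (background 0%). Probe sets of 1 gene measure the same RNA, so they are not independent counts.

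**Figure D1:**
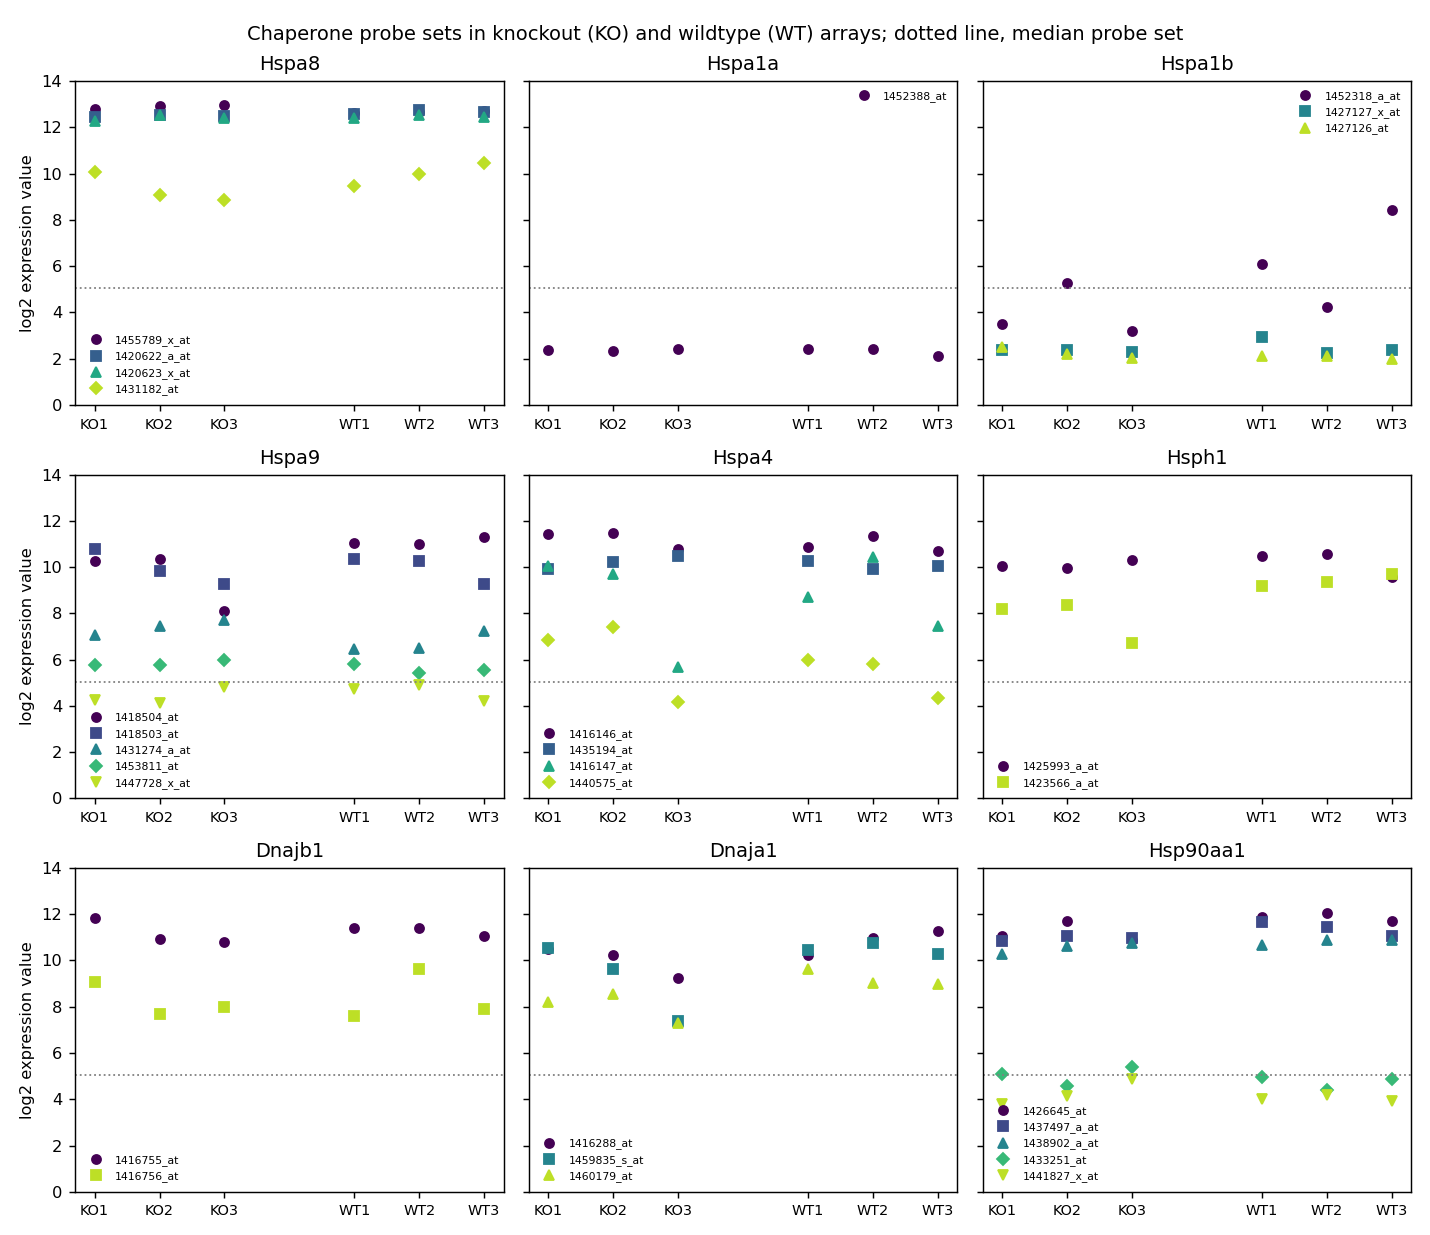
Log2 expression value of every chaperone probe set (symbols) in the 3 knockout and 3 wildtype arrays, by gene; replicates have no order. The 3 brightest Hspa8 probe sets stay between 12.27 and 12.96 in all 6 arrays, Hspa1a and 2 of 3 Hspa1b probe sets stay near 2, and 1 Hspa1b probe set runs from 3.21 to 8.40.

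Hspa8, the constitutive HSP70 (HSC70) that also uncoats clathrin vesicles, gave small differences of both signs. Probe set 1455789_x_at, the brightest, was 12.80, 12.93 and 12.96 in knockout arrays, against 12.64, 12.66 and 12.70 in wildtype arrays. The 3 knockout values all exceeded the 3 wildtype values, with a difference of 0.23 (SE 0.08, 95% interval 0.03 to 0.43, adjusted p = 0.906 in limma). Probe set 1420622_a_at was 12.44, 12.54 and 12.50 in knockout arrays, against 12.56, 12.74 and 12.68 in wildtype arrays. Here the knockout arrays all lay below, with a difference of -0.16 (95% interval -0.38 to 0.05). The overlapping set 1420623_x_at differed by -0.06, and 1431182_at was 10.05, 9.06 and 8.86 in knockout arrays, against 9.48, 9.99 and 10.46 in wildtype arrays, a difference of -0.65 (SE 0.46). Without knockout replicate 3 the 4 differences were 0.20, -0.17, -0.07 and -0.42. The mean of all 4 probe sets gave -0.16 for the gene, and without probe sets whose suffix marks shared or multiple transcripts it was -0.65. A suffix of _x marks probes that may bind other sequences, _s probes shared by several transcripts and _a alternative transcripts of a gene. The 95% intervals of the 3 brightest sets all lay between -0.38 and 0.43.

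Hspa1a and Hspa1b are the stress-inducible HSP70 genes, neighbours whose transcripts are close to identical, so an array cannot well tell them apart. Their promoters are shown because this near identity holds before the start site as well. Windows of 250 bases before to 50 after the RefSeq start were searched for the 2-unit heat shock elements GAANNTTC and TTCNNGAA, each its own reverse complement, and for 3-unit forms, in which both share a unit, on both strands. The 2 sequences (RefSeq, GRCm38.p6, chr17:34972107-34972406 and chr17:34959189-34959488, minus strand) are written 5′ to 3′ with matches in capitals.
Hspa1a: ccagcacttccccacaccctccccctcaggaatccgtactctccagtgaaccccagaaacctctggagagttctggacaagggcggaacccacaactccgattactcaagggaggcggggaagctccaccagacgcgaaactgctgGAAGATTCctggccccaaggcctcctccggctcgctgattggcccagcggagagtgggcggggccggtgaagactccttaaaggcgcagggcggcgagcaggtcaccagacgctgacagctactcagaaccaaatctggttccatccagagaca
Hspa1b: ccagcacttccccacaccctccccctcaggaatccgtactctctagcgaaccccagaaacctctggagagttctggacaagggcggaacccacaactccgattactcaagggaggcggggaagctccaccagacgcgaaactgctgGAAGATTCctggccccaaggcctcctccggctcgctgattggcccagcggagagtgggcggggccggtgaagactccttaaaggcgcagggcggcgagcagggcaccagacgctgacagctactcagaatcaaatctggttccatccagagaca
The windows agree at 296 of 300 positions (98.7%), and each holds the same GAANNTTC match, which begins at position -104 from the start. A 2-unit form stands in 15.1% and a 3-unit form in 0.603% of all 32851 windows of this length. Of the 10 windows of 6 members, 5 hold a 2-unit form, and they belong to Hspa1a, Hspa1b, Hsph1 (both of its windows overlap) and Dnaja1. No window was available for Hsp90aa1, Hsp90ab1, Hspa8 and Hspa9, so these were not searched. Since the Hspa1a and Hspa1b windows are near copies, these are not independent counts. No binding was measured, so these matches are letters only.

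The inducible HSP70 genes Hspa1a and Hspa1b were low or variable and not shown to differ. Hspa1a probe set 1452388_at was 2.38, 2.33 and 2.42 in knockout arrays, against 2.43, 2.41 and 2.12 in wildtype arrays, at the 2.10 percentile of all probe sets. The Hspa1b sets 1427126_at and 1427127_x_at lay between 1.99 and 2.93 in all 6 arrays, at the 0.397 and 3.14 percentiles. These levels are near the lowest of the table. The brightest Hspa1b set, 1452318_a_at, was 3.51, 5.25 and 3.21 in knockout arrays, against 6.11, 4.25 and 8.40 in wildtype arrays. The groups overlap, since knockout replicate 2 lay above wildtype replicate 2, and wildtype replicate 3 is far above the rest. The difference was -2.26 (SE 1.11, 95% interval -4.93 to 0.41, adjusted p = 0.906 in limma), the largest in size of all 29, and -1.19 without wildtype replicate 3 or -1.87 without knockout replicate 3. The other Hspa1b sets differed by 0.19 and -0.17, so the gene's -2.26 rests on 1 probe set of 3, and their mean gave -0.75.

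Hspa9 (mortalin) is the mitochondrial HSP70 that pulls proteins into the matrix and helps build iron-sulfur clusters. Among the members it had the widest range of differences over its bright probe sets. Probe set 1418504_at was 10.24, 10.34 and 8.08 in knockout arrays, against 11.05, 10.98 and 11.30 in wildtype arrays. Every knockout array lay below every wildtype array, and knockout replicate 3 lay more than 2 log2 units below the other knockout arrays. The difference was -1.56 (SE 0.63, 95% interval -3.07 to -0.05), and -0.82 without knockout replicate 3. Probe set 1418503_at, with a similar place in the table (96.5 and 95.4 percentile), was 10.77, 9.85 and 9.26 in knockout arrays, against 10.36, 10.28 and 9.28 in wildtype arrays. Its difference was -0.016 (SE 0.51) and the groups overlapped. The set 1431274_a_at pointed the other way, with 7.08, 7.43 and 7.73 in knockout arrays, against 6.46, 6.51 and 7.22 in wildtype arrays, a difference of 0.68 (SE 0.49). The 2 dimmest sets differed by 0.24 and -0.23, and the mean of all 5 gave -0.18 for the gene.

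Hspa4 and Hsph1 encode HSP110 proteins, which recharge HSP70 with ATP and, with HSP70 and HSP40, take apart aggregates. Hspa4 probe set 1416146_at was 11.44, 11.47 and 10.76 in knockout arrays, against 10.87, 11.34 and 10.69 in wildtype arrays, a difference of 0.26 (SE 0.29). Set 1435194_at was 9.90, 10.24 and 10.49 in knockout arrays, against 10.27, 9.92 and 10.04 in wildtype arrays, a difference of 0.14. In both sets the groups overlapped, and without knockout replicate 3 the differences were 0.49 and -0.0059. Set 1416147_at was 10.05, 9.69 and 5.66 in knockout arrays, against 8.71, 10.42 and 7.47 in wildtype arrays. Its spread of 2.43 in knockout (SD, n = 3) and 1.48 in wildtype left a difference of -0.40 with a wide 95% interval of -3.65 to 2.84, and it was 1.00 with knockout replicate 3 left out and 0.37 with wildtype replicate 2 left out. The dimmer 1440575_at was 6.86, 7.42 and 4.17 in knockout arrays, against 5.97, 5.80 and 4.34 in wildtype arrays, with replicate 3 lowest in both groups as before. It differed by 0.77 (SE 0.96), and leaving out 1 array at a time gave 0.14 (without knockout replicate 2) to 1.77 (without knockout replicate 3), with 0.26 without wildtype replicate 3 and 0.42 without knockout replicate 1.

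For Hsph1 the probe sets differed in size but not in sign. Its promoter window is shown because Hsph1 is the only searched member whose windows hold a 3-unit heat shock element (RefSeq, GRCm38.p6, chr5:149636287-149636586, minus strand, matches in capitals).
Hsph1: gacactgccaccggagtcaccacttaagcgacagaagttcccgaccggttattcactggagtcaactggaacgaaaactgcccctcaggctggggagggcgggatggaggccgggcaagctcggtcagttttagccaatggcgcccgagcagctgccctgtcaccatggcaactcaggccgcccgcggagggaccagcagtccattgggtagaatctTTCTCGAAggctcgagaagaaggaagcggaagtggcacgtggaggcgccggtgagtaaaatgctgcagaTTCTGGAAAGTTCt
The 3-unit match begins at position 37 and another 2-unit match at position -33 from the start. Probe set 1423566_a_at was 8.20, 8.37 and 6.72 in knockout arrays, against 9.17, 9.34 and 9.72 in wildtype arrays. The groups do not overlap, and knockout replicate 3 is again the lowest. The difference was -1.64 (SE 0.57, 95% interval -3.02 to -0.26, adjusted p = 0.906 in limma) and -1.12 without knockout replicate 3. The brighter 1425993_a_at was 10.06, 9.97 and 10.32 in knockout arrays, against 10.48, 10.58 and 9.58 in wildtype arrays, and knockout replicate 3 was the highest knockout array there. It differed by -0.10 (SE 0.36), and by 0.09 without wildtype replicate 2.

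Dnajb1 and Dnaja1 encode HSP40 proteins with a J domain, which stimulates the ATPase of HSP70; Dnajb1 is also a classical heat shock gene. Dnajb1 set 1416755_at was 11.82, 10.93 and 10.80 in knockout arrays, against 11.41, 11.41 and 11.08 in wildtype arrays. Set 1416756_at was 9.06, 7.71 and 7.99 in knockout arrays, against 7.61, 9.65 and 7.91 in wildtype arrays. In both the groups overlap and knockout replicate 1 is the highest knockout array. The differences of -0.12 (SE 0.31) and -0.14 (SE 0.72) were the closest pair among the members, and both turned above 0 without knockout replicate 2, at 0.01 and 0.14.

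Dnaja1, whose protein is farnesylated, was lower in all 3 probe sets without passing the test. The 1 promoter window of Dnaja1 that holds a heat shock element is given for comparison (RefSeq, GRCm38.p6, chr4:40722218-40722517, plus strand, match in capitals, beginning at position -124 from the start).
Dnaja1: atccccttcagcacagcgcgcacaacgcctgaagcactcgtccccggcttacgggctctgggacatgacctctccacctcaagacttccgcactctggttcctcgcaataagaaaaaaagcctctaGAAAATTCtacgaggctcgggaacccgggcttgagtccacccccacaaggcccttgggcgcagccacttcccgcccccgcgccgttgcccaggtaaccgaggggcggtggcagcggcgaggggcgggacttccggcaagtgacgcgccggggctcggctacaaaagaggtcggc
Probe set 1416288_at was 10.48, 10.22 and 9.24 in knockout arrays, against 10.23, 10.96 and 11.26 in wildtype arrays. Set 1459835_s_at was 10.55, 9.62 and 7.38 in knockout arrays, against 10.45, 10.78 and 10.26 in wildtype arrays. In both, knockout replicate 1 lay within the wildtype range and knockout replicate 3 below all others. Set 1460179_at was 8.19, 8.55 and 7.29 in knockout arrays, against 9.65, 9.03 and 8.97 in wildtype arrays, so its groups did not overlap. The differences were -0.84 (SE 0.44), -1.31 (SE 0.80) and -1.20 (SE 0.51, 95% interval -2.42 to 0.02), with adjusted p = 0.906 for each in limma. Without knockout replicate 3 they were -0.47, -0.41 and -0.84.

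Hsp90aa1, the inducible cytosolic HSP90, was lower in knockout in its 3 bright probe sets. Set 1426645_at was 11.04, 11.69 and 10.86 in knockout arrays, against 11.87, 12.07 and 11.70 in wildtype arrays, groups that just fail to overlap at 11.69 and 11.70. Set 1437497_a_at was 10.82, 11.05 and 10.97 in knockout arrays, against 11.67, 11.43 and 11.05 in wildtype arrays, where knockout replicate 2 lay above wildtype replicate 3. Set 1438902_a_at was 10.27, 10.61 and 10.78 in knockout arrays, against 10.67, 10.89 and 10.88 in wildtype arrays, with overlap. The differences were -0.68 (SE 0.25, 95% interval -1.29 to -0.07), -0.43 (SE 0.22) and -0.26 (SE 0.23), with adjusted p = 0.906 for each. All 3 kept their sign when any 1 array was left out, between -0.92 and -0.12. The mean of all 5 probe sets, the dim ones included, gave -0.18 (SE 0.35) for the gene. The 2 dim sets, 1433251_at and 1441827_x_at, with means of 5.01 and 4.26 in knockout and 4.75 and 4.04 in wildtype, differed by 0.26 and 0.21.

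**Figure D2:**
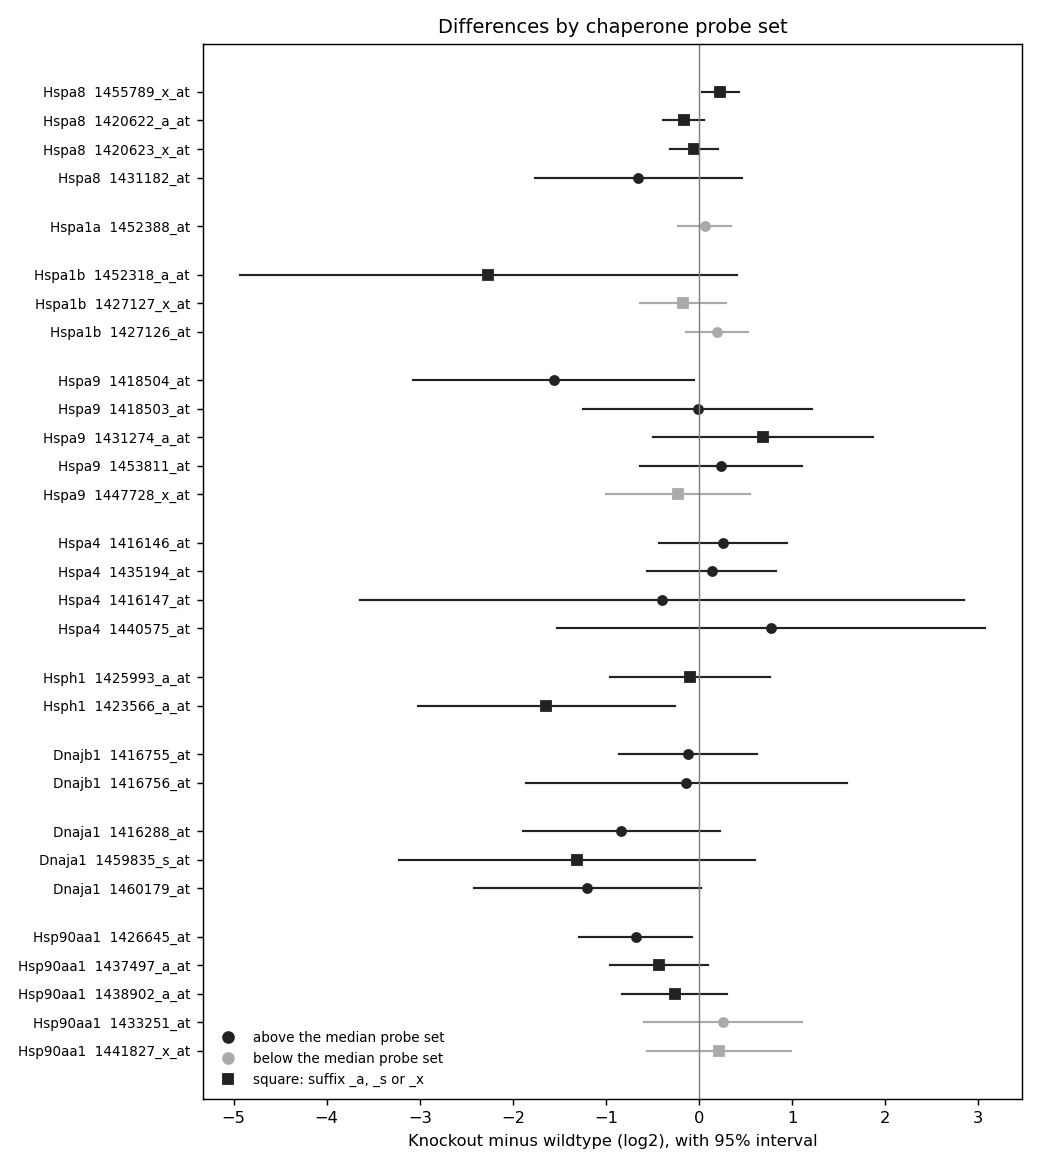
Knockout minus wildtype difference (log2) of each of the 29 chaperone probe sets with its 95% interval from limma; black symbols lie above and grey ones below the median probe set, and squares have a suffix. Dnaja1, Hsp90aa1 (bright sets) and Dnajb1 lie on the lower side, while Hspa8, Hspa9 and Hspa4 have sets on both sides of 0.

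Agreement of the bright probe sets of a gene was measured as the gap between their highest and lowest difference. The gap was 0.02 for Dnajb1, 0.42 for Hsp90aa1, 0.48 for Dnaja1, 0.88 for Hspa8, 1.18 for Hspa4, 1.54 for Hsph1 and 2.24 for Hspa9. Over all 4881 genes with several bright probe sets the median gap was 0.99, and over these 7 members it was 0.88. That order turned without knockout replicate 1 (1.29 for the members and 1.12 for all such genes) and without wildtype replicate 1 (1.12 and 1.09), and without knockout replicate 3 the medians were 0.62 and 1.05. Among 1246 genes with 3 bright sets, 89.2% had a larger gap than Hsp90aa1 and 86.4% a larger one than Dnaja1. Among 489 genes with 4 bright sets, 22.9% had a larger gap than Hspa9, 64.4% than Hspa4 and 78.7% than Hspa8. Among 2828 genes with 2 bright sets, 97.8% had a larger gap than Dnajb1 and 19.4% than Hsph1. The sets of Hsp90aa1, Dnaja1, Dnajb1 and Hsph1 shared a sign, which makes 4 of 7 members (57.1%), against 44.0% of all such genes. The number was 3 of 7 when knockout replicate 3, wildtype replicate 1 or wildtype replicate 2 was left out. The 44.0% pools genes with unlike numbers of sets. It was 57.1% of genes with 2 bright sets, 31.9% with 3 and 22.1% with 4. All sets of a gene are less easily on 1 side the more of them there are, so the following counts are not ranked between genes. Array by array, the 2 sets of Dnajb1 were on the same side of their own means in 5 of 6 arrays and the 2 of Hsph1 in 4, the 3 sets of Dnaja1 in 4 and the 3 of Hsp90aa1 in 2, and the 4 sets of Hspa4 in 2, of Hspa8 in 1 and of Hspa9 in 0.

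**Figure D3:**
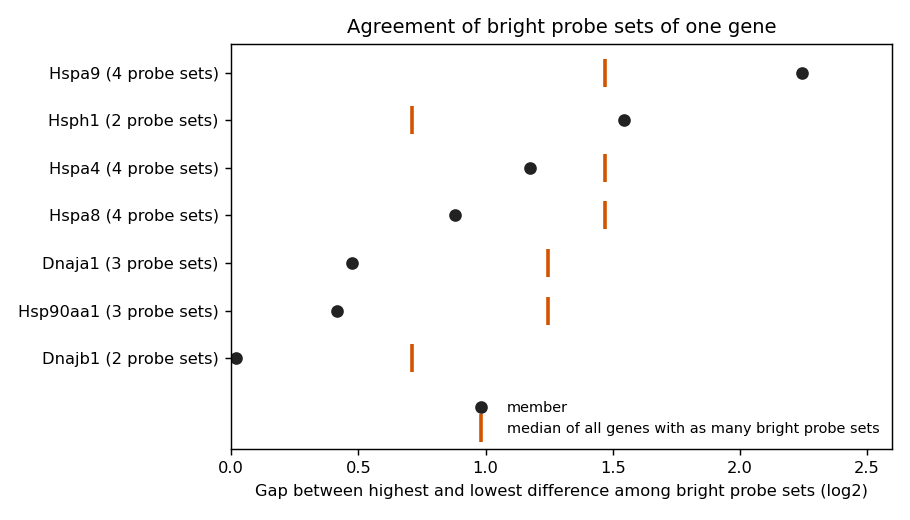
Gap (log2) between the highest and lowest knockout minus wildtype difference among bright probe sets of each chaperone (dots), with the median gap of all genes that have as many bright probe sets (bars). Hspa9 and Hsph1 lie above that median, the other 5 below it.

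Knockout replicate 3 was the lowest of the 6 arrays in 12 of 23 bright chaperone probe sets, against 21.6% of all bright probe sets. It was the highest in 4 of 23, against 23.1%. Wildtype replicate 2 was the highest in 8 of 23, against 14.1%. Within a gene, sets both agreed and disagreed there. All 3 Dnaja1 sets were lowest in this array, as were the 2 brightest Hspa9 sets and the Hspa4 sets 1416147_at and 1440575_at. In contrast, Hspa4 1435194_at and Hspa9 1431274_a_at were highest of all arrays there, and the gap between sets of 1 gene was largest in this array for 6 of 7 members. The neutrophil marker sum was also highest there, at 16.08. The mean of the 13 measured LT-HSC markers was lowest there, at 7.71 against 9.64 and 9.10 in the other knockout arrays and 8.96 to 9.49 in wildtype arrays. By summed signal, the measure used for the neutrophil markers, the LT-HSC markers were lowest there by less. That sum was 12.81, against 14.02 and 13.48 in the other knockout arrays and 13.44 to 13.95 in wildtype arrays. The part of either marker list in the chaperone values was not tested. The median SD within groups was 0.42 over bright chaperone probe sets and 0.82 over all bright probe sets, and among the chaperones it was 0.56 in knockout and 0.31 in wildtype.

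**Figure D4:**
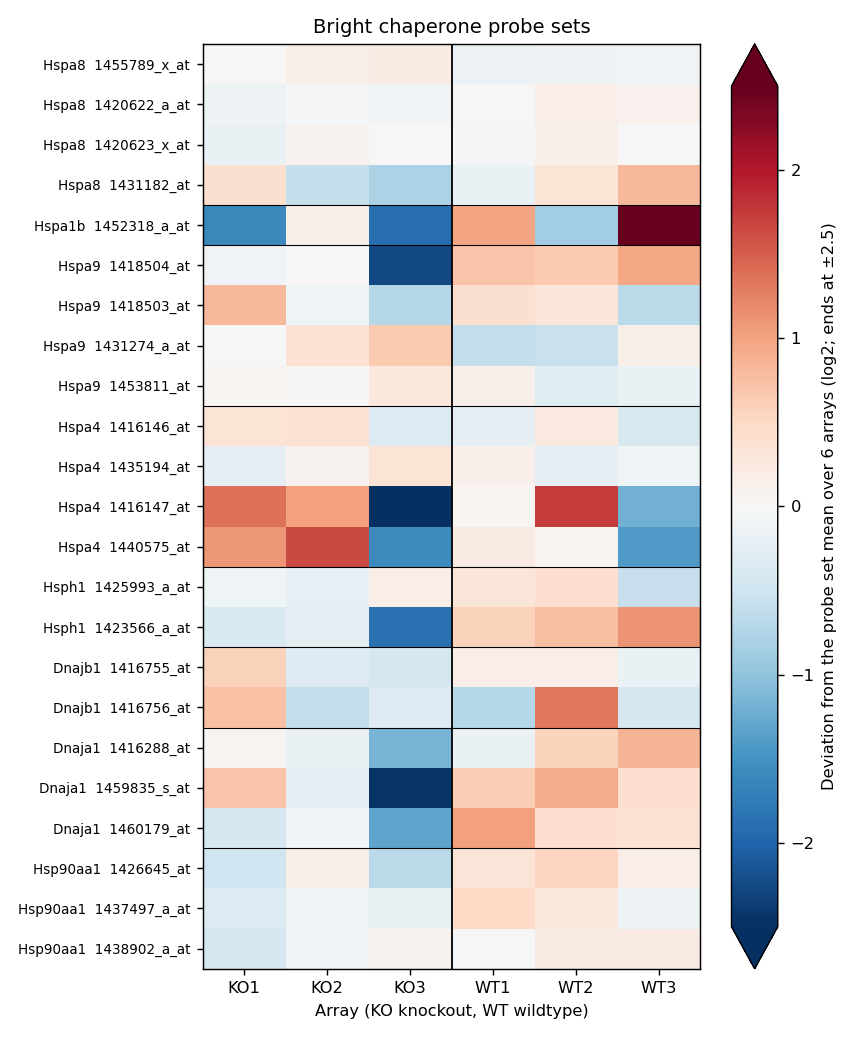
Deviation (log2) of each bright chaperone probe set in each array from its own mean over 6 arrays; red is higher, blue lower, and colours end at ±2.5. The darkest blue cells stand in knockout replicate 3, where all 3 Dnaja1 sets are blue, while Hspa4, Hspa9 and Hsph1 each have sets on both sides of 0.

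The chaperones' mean profile, centred on each gene's own mean, was -0.14, 0.01 and -0.71 in the knockout arrays and 0.23, 0.18 and 0.42 in the wildtype arrays. Hspa1b weighs on this mean, since its probe set 1452318_a_at was 8.40 in wildtype replicate 3, against a mean of 5.12 over all arrays. The members' median deviation from each gene's wildtype mean was -0.15, -0.25 and -0.50 in the knockout arrays. In the wildtype arrays it was -0.03, 0.11 and -0.18, lowest in replicate 3. The 5 other genes above the median level that came closest to the mean profile over the 6 arrays were H2az2, Samm50, Wbp11, Nlrc5 and Elp3. Their mean absolute distances were 0.08, 0.11, 0.11, 0.11 and 0.11, where the median of 9089 candidates was 0.68. With Hspa1b weighing on it, that profile does not stand for each member.

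Partners and relatives of the chaperones did not pass the test either, with 0 of 114 measured genes in 9 lists (background 0% of all genes). Of the 114, 6 were higher and 9 lower in knockout without overlap, where the background is 6.67% and 4.25% of all genes, and their median difference was 0.04, against 0.07 over all genes. Of the 114, 89 lay above the median gene level, where the background is 4.89% and 6.3%. The 15 measured HSP90 cochaperones had a median of 0.06. Stip1 (HOP), which bridges HSP70 and HSP90, was 9.12, 8.98 and 7.18 in knockout arrays, against 10.62, 10.89 and 9.52 in wildtype arrays. Its groups did not overlap, and the difference of -1.92 (SE 0.68, adjusted p = 0.887 in limma) was -1.29 without knockout replicate 3. Tomm70a, the mitochondrial import receptor that binds both chaperones, differed by 0.57 (SE 0.32), by 0.28 without wildtype replicate 2, and its bright probe sets ran from -0.71 to 1.08. The 13 HSP70 cochaperones and exchange factors had a median of 0.13, with 9 of 13 above 0. Hscb, the J protein that serves Hspa9 in iron-sulfur cluster transfer, was 8.72, 9.32 and 6.13 in knockout arrays, against 9.40, 10.99 and 10.15 in wildtype arrays, a difference of -2.12 (SE 0.92) that was -1.16 without knockout replicate 3. Bag2, a nucleotide exchange factor, differed by 0.76 (SE 0.53), and by 0.28 without that array.

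The 4 measured genes of the heat shock factor list had a median of -0.31, which was 0.17 without wildtype replicate 1 and 0.09 when a gene's probe sets were averaged. Hsf1, the gene of HSF1, is not among the 4 and has no value here. Hsbp1, which binds heat shock factor trimers, was 10.57 ± 0.37 in knockout and 11.21 ± 0.30 in wildtype (SD, n = 3 each), and its other probe set gave 1.05. Hsf4, at 5.47 in knockout and 5.03 in wildtype, lay below the median gene level. The 10 small heat shock protein genes had a median of 0.33, with 9 above 0, but only 3 of the 10 lay above the median gene level of 5.81. Hspb11, named with this family but part of the transport machinery of cilia, differed by 2.01 (SE 0.73), and Hspb9 by 0.78 (SE 0.44).

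All 5 genes of the mitochondrial chaperonin and protease list were below 0, with a median of -0.40 that was -0.83 without knockout replicate 2 and -0.21 without knockout replicate 3. Hspe1, the lid of the mitochondrial chaperonin, was 11.77, 11.75 and 11.63 in knockout arrays, against 11.86, 12.22 and 11.95 in wildtype arrays, without overlap and with a difference of -0.30 (SE 0.15). Its partner Hspd1 (HSP60) differed by -0.47 (SE 0.30). Both HSP90 genes of other compartments were below 0, Trap1 of mitochondria by -0.82 (SE 0.54) with 0.29 in another probe set, and Hsp90b1 (GRP94) of the endoplasmic reticulum by -0.65 (SE 0.42). The 9 other HSP70 and HSP110 genes had a median of -0.66, which was -0.22 without knockout replicate 2 and 0.01 when a gene's probe sets were averaged. It has 4 genes above and 5 below 0. In that list Hspa4l, a close relative of Hspa4, differed by -0.95 (SE 0.54), with its 4 bright sets between -3.10 and -0.47, and Hspa13 by -1.36 (SE 0.71), with another set at 1.88.

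The 41 measured J-domain genes had a median of 0.01, with 22 above and 19 below 0. Dnajc3, which restrains the kinase PERK's branch of the stress response, differed by -2.11 (SE 0.89), with bright sets up to 0.15. Dnajc14 differed by 1.86 (SE 0.89), with bright sets down to -0.29. In the list of the cytosolic chaperonin TRiC, the folding chamber for actin and tubulin, and of prefoldin that feeds it, 15 genes had a median of -0.05. Of these 15, 2 were higher and 4 lower without overlap, where 6.67% and 4.25% of all genes were, and 4.89% and 6.3% of genes above the median level. Cct2 was 11.84, 12.16 and 11.77 in knockout arrays, against 11.57, 10.96 and 11.32 in wildtype arrays, and all 3 of its sets were above 0, between 0.46 and 1.19. Cct3 differed by 0.53 (SE 0.21) in its brightest set, while other sets went down to -1.11. The 16 immediate-early genes, which cell handling is known to raise along with heat shock genes, had a median of 0.38 with 12 above 0, and this median was 0.17 without knockout replicate 1, 0.21 without knockout replicate 2 and 0.21 without wildtype replicate 1. Named by the rule were Klf2 at 1.33 (SE 0.50) and Atf3 at 1.92 (SE 0.83).

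**Figure D5:**
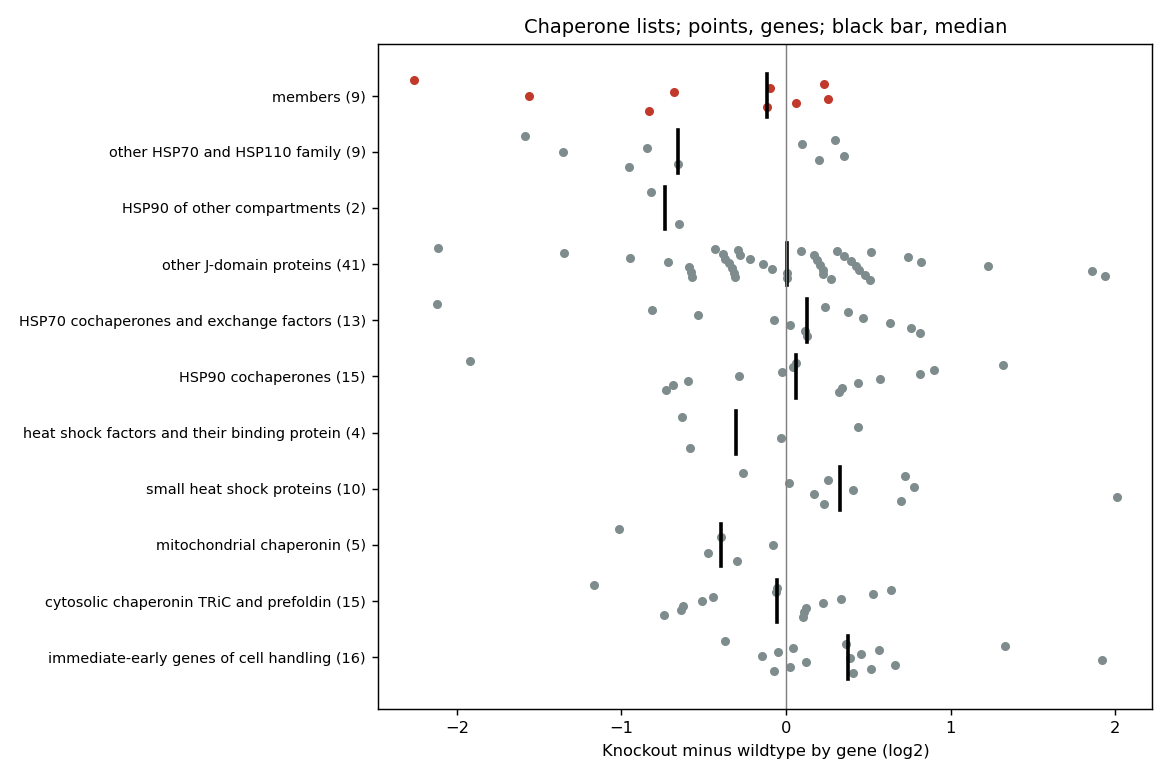
Knockout minus wildtype difference by gene (log2) for the 9 measured chaperones (red) and for related lists (grey), with the number of measured genes in brackets; black bars are medians. Medians run from -0.74 for the 2 HSP90 genes of other compartments to 0.38 for immediate-early genes, and single genes spread over both sides of 0 in most lists.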

How the data were processed

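Sorted LT-HSC RNA of 3 knockout and 3 wildtype samples was amplified and hybridised to mouse Affymetrix arrays, per the labels' protocols. The authors deposited log2 values for each probe set of each array. The submitters' processing notes name Partek, Affymetrix Expression Console and RMA without settings. RMA models each probe set over all arrays, and its values understate differences at low signal. The number of arrays limits the precision.

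Probe sets were named through the platform annotation, updated by Entrez number to RefSeq (0 symbols changed); 34945 named 1 gene, 932 several and 9160 none. The brightest single-gene probe set stood for each of 18193 genes, with no level filter. Groups came from the titles. The test was limma (version 3.58.1, R 4.3.3), using lmFit and trended eBayes, adjusted by Benjamini-Hochberg, and it was tested on simulated data. There it called 5.6% of genes shifted by 1 log2 unit, 24.4% at 2, 48% at 3 and 63.6% at 4. A gene that did not pass is thus not shown to be unchanged. Each simulated run shifted many genes at once and drew SDs from all genes, so these rates are not specific to the chaperones. Deviations of same-numbered arrays correlated at -0.02, -0.01 and -0.01 over genes, so no effect shared by same-numbered arrays was seen. Whether such samples were collected or handled together cannot be told from this. Alternatives covered array weights, moderation, a level filter, how probe sets stand for genes, scaling, a replicate block and leaving out each array. From each related list up to 2 genes with the smallest unadjusted p were named, besides the 5 genes of most similar profile. Members and lists were chosen with earlier results of these data known. The p-values rest on 3 samples per group, whose animals the labels do not name. Tables and figures were made with Python 3.11.15 (numpy 2.4.6, pandas 2.3.3, matplotlib 3.10.9).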

Additional observations from a re-analysis of the deposited data

How the results depend on the processing

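Under the alternatives 0 chaperones and 0 genes of the related lists passed the threshold by gene. Where probe sets were fitted, 0 chaperone probe sets passed. Of 726 values of named genes and bright probe sets under alternatives, 700 kept their direction. Moderation, the level filter and the replicate block leave a difference as it is, so the values under these could not turn. Of 23 bright chaperone probe sets, 16 kept their sign when each array was left out in turn. With a gene's probe sets averaged, 0 members were higher without overlap (Hspa8 -0.16, Hspa13 0.0124, Hsbp1 0.21), the heat shock factor list's median was 0.09 and 1 gene of the array passed, as 1 did with arrays centred on their median. Without suffixed probe sets 0 members were higher without overlap, the members' median was -0.38 over 8 genes, Hspa8 was -0.65, Hspa1b 0.19, and bright sets shared a sign in 2 of 4 genes. The probe set Hspa9 1418503_at was 0.0436 with array weights and 0.0215 with quantile normalization. Leaving out each array in turn, the members' median ran from -0.44 to -0.022, members higher without overlap from 1 to 2 and lower from 2 to 4, probe sets higher from 1 to 4 and lower from 6 to 9. With 5 arrays the groups miss each other more often, for 10.5% to 16.1% of all genes upwards and at least 7.62% downwards (probe sets 10.5% to 15.5% and 7.59% to 9.79%). The highest of these counts came without knockout replicate 1 for those lower and without knockout replicate 3 for those higher, and the lowest medians, -0.44 and -0.41, without knockout replicate 1 and without wildtype replicate 3. Values that turned ran from -0.41 to 0.0864 for Hsph1 and its set 1425993_a_at, from -0.44 to 0.0762 for Dnajb1 and its set 1416755_at, from -0.54 to 0.49 for 1416756_at, from -0.0398 to 0.11 for Hspa1a, from -0.42 to 0.34 for Hspa9 1418503_at, from -1.19 to 1.00 for Hspa4 1416147_at, from -0.0059 to 0.29 for Hspa4 1435194_at and from -0.11 to 0.0096 for Hspa8 1420623_x_at. The cause was not tested beyond what each setting leaves out. With the replicate block 0 members passed and the median was -0.12. The labels do not say whether same-numbered arrays are pairs, and knockout replicate 1 correlated best with wildtype replicate 3. The block changed no call. RMA values near the bottom of the table, as for Hspa1a, limit what could be seen there.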
